A study of Homo sapiens with 6 samples.

Results

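Interferon regulatory factors (IRFs) are a family of transcription factors, and 8 of them (IRF1, IRF2, IRF3, IRF4, IRF5, IRF7, IRF8 and IRF9) were followed here after silencing of PHF19 in leukaemia cells. They were taken by gene symbol from a count table of 26410 rows, and 7 of the 8 had enough reads to be tested among 13014 genes. The RNA came from Kasumi-1, an established human acute myeloid leukaemia line with the RUNX1::RUNX1T1 fusion. One group of 3 libraries carried a lentiviral hairpin against PHF19 (shPHF19), a Polycomb-like partner of Polycomb repressive complex 2. The other 3 were the controls, whose treatment tag reads WT while the series title and protocol give a scrambled hairpin. Lentivirus was applied in both groups under the protocol, and puromycin at 2 µg/ml followed 48 h later for at least 24 h. Each group stands for 1 cell line, and the labels do not say whether replicates were separate cultures. The hairpin sequence was not used here.

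The family shares an amino-terminal DNA-binding domain with conserved tryptophans that reads GAAA repeats, and these repeats form the interferon-stimulated response element (ISRE). IRF3 and IRF7 are switched on by phosphorylation downstream of nucleic acid sensors and drive interferon genes, and IRF5 acts after Toll-like receptors. IRF9 binds DNA in a complex with STAT proteins that answers type I interferon, IRF1 is induced by interferon-gamma, and IRF2 competes with IRF1 for shared sites. IRF4 and IRF8 are the lineage members of blood cells, which pair with the ETS factor PU.1 (SPI1), and IRF8 is known in myeloid progenitors for favouring monocytes and dendritic cells over neutrophils.

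Promoter sequences are shown for the members in which a searched motif lay before the annotated start, namely IRF1, IRF9 and a start of IRF5. A link between these motifs and the changes in shPHF19 cells was not tested. Windows reaching from 250 bases before to 50 bases after a start were available in RefSeq (GRCh38.p14) for 5 of the 8 members, in 9 windows, and not for IRF2, IRF3 or IRF7. Both strands were searched for the ISRE core (GAAA, any 2 bases, GAAA), the STAT site GAS (TTCNNNGAA), and the ETS and IRF composite element (GGAA, any 2 bases, GAAA). The ISRE core and the composite element share their GAAA end and can overlap. The 250 bases before the start are printed 5′ to 3′ on the gene's own strand, with the motif in capitals.
IRF1, chr5:132490774-132491023, minus strand: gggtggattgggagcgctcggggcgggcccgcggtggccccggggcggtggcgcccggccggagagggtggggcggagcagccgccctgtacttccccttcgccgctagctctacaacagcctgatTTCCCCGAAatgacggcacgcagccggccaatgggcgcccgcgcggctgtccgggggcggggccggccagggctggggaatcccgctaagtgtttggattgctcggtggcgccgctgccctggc
IRF9, chr14:24161015-24161264, plus strand: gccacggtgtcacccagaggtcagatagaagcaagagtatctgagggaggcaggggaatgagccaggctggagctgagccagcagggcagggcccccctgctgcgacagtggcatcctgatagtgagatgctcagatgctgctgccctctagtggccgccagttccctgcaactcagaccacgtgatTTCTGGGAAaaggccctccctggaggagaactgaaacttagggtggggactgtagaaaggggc
IRF5, start 3 of 4, chr7:128940420-128940669, plus strand: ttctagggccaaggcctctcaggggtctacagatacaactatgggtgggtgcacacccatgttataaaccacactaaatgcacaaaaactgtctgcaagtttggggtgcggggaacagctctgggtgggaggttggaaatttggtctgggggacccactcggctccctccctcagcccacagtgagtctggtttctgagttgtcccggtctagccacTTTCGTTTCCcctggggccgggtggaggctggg
The IRF1 window held TTCCCCGAA from -124 to -116 relative to the start, and the IRF9 window held TTCTGGGAA from -63 to -55, both matches to GAS. The IRF5 window held TTTCGTTTCC from -33 to -24, a match to the composite element on the opposite strand. Among all 35116 windows of the same length 7.66% held a GAS match, 3.57% an ISRE core and 2.82% a composite element. Counted per gene over all its windows, the shares were 9.38%, 4.38% and 3.47% of 27305 genes. The windows of IRF4 and IRF8 held none of these letters, and no member window held the ISRE core. Both IRF8 windows belong to starts 4027 and 4212 bases inside the GENCODE gene, so its 5′ end was not searched. The printed IRF5 start lies 3058 bases inside its GENCODE gene, and the IRF9 start lies 212 bases inside. The GAS match of IRF9 at -63 to -55 therefore falls within its GENCODE gene. These are letter matches in short windows and were not tested as binding sites.

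The libraries held 14229878 to 16615143 counts, and levels are given as CPM, counts per library size scaled by the trimmed mean of M-values (TMM). A gene with 0 counts may stand at up to 3 counts, which is 0.177 to 0.223 CPM in these libraries. PHF19 itself stood at 168, 199 and 189 CPM in control replicates 1 to 3 and at 41.1, 36.9 and 33.0 CPM in the shPHF19 replicates (edgeR quasi-likelihood test, log2 fold change -2.32, adjusted p = 3.55e-25), so the hairpin's target was lower in each library labelled with it. Most of the transcriptome differed, with 60.2% of tested genes past an adjusted p of 0.05 (29.4% higher, 30.9% lower), and that share is the background for every count given here. All 10 listed myeloid and Kasumi-1 markers were detected, KIT, CD34 and MPO among them. Of markers of other cells, TNFRSF17 and CD8B had no count, and HBB (38 counts in all), DCN (15) and MS4A1 (5) were near 0. The summed level of 13 erythroid, fibroblast and epithelial markers was still 57.6 to 71.8 CPM in control and 84.4 to 101 CPM in shPHF19 libraries. Of the 5 of these markers tested 1 rose and 0 fell (20.0% called). PAX5, CD79B and CD3D were expressed in both groups, and the summed level of 13 lymphoid markers was 122 to 138 CPM in control and 130 to 143 CPM in shPHF19 libraries. Of the 8 lymphoid markers tested 4 fell and 2 rose (75.0% called), with SDC1 at -2.14, CD8A at -0.96 and CD3D at 0.55 on the log2 scale. Their part in the results was not tested.

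Silencing of PHF19 was accompanied by lower IRF7, IRF9, IRF1 and IRF2 and by higher IRF5, while IRF3 and IRF8 did not pass the test. Of the 7 tested members 5 were called (71.4%), 4 lower and 1 higher, against 60.2% of all tested genes, so the number called does not set the family apart. The median log2 fold change was -0.50 over the 7 and -0.03 over all tested genes. The groups did not overlap for the same 5 members, where 63.5% of all genes showed no overlap. Only IRF7 changed by 2-fold or more among the called members, as did 10.9% of tested genes in the downward direction.

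**Figure D1:**
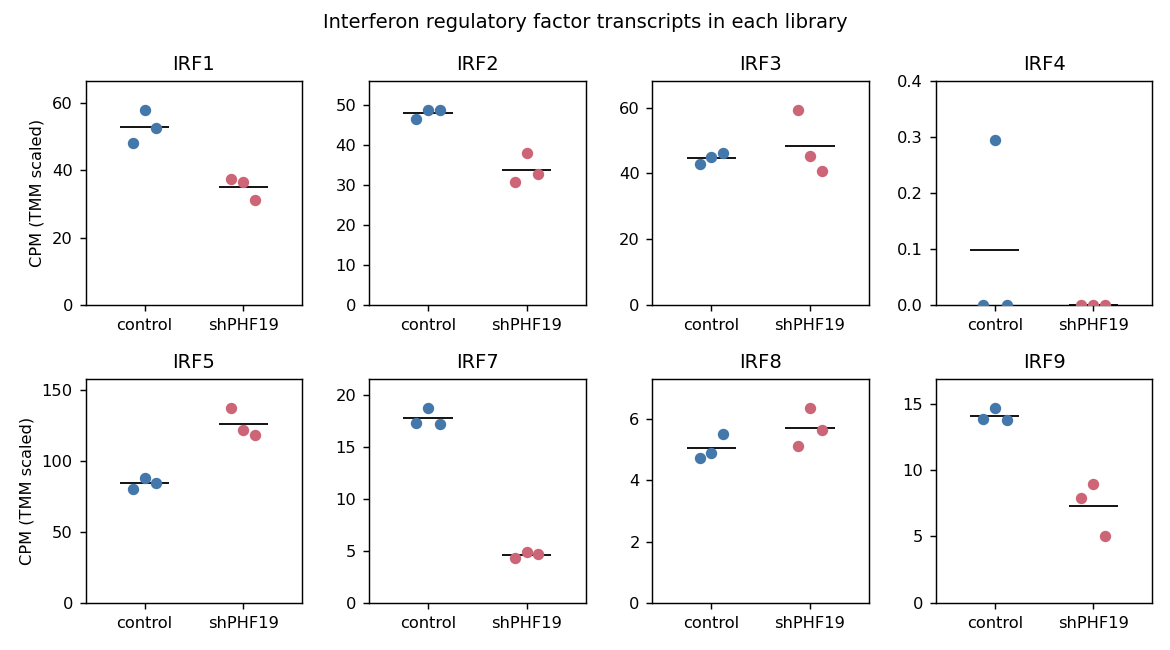
TMM-scaled CPM (y axis, from 0, with a separate scale per gene) of the 8 interferon regulatory factors in each of 3 control and 3 shPHF19 libraries (points), with group means as lines. IRF1, IRF2, IRF7 and IRF9 lie lower and IRF5 higher in every shPHF19 library, IRF3 and IRF8 overlap, and IRF4 was counted in 1 control library.

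IRF7, the member that amplifies type I interferon production and is itself an interferon-stimulated gene, showed the largest change of the family. It was measured at 17.3, 18.7 and 17.2 CPM in control replicates 1, 2 and 3 and at 4.31, 4.92 and 4.68 CPM in the shPHF19 replicates. The groups lay far apart relative to their spread, at 17.8 ± 0.837 against 4.64 ± 0.311 CPM (SD, n = 3). IRF7 was 3.82-fold lower (log2 fold change -1.93, 95% interval -2.28 to -1.59, edgeR quasi-likelihood test, adjusted p = 1.36e-13). Only 3.23% of tested genes had a more negative fold change. The gene (ENSG00000185507, chromosome 11, 612553 to 615999, minus strand, GENCODE 29, GRCh38) is protein coding and overlaps no other annotated gene. It drew 866 counts over the control group and 202 over the shPHF19 group, far above the counting limit.

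IRF9, the DNA-binding subunit of the complex it forms with STAT proteins, fell as well. Its levels were 13.8, 14.7 and 13.7 CPM in control and 7.87, 8.94 and 5.03 CPM in shPHF19 replicates. The control libraries were tight (14.1 ± 0.512 CPM) and the shPHF19 libraries spread more (7.28 ± 2.02 CPM, SD, n = 3), with replicate 3 the lowest. The log2 fold change was -0.95 (95% interval -1.31 to -0.59, edgeR adjusted p = 1.11e-05), and it was -0.74 without shPHF19 replicate 3 (edgeR adjusted p = 0.000307). IRF9 (ENSG00000213928) spans 24161053 to 24166565 on the plus strand of chromosome 14, and 1838 of its 3794 annotated exonic bases are shared with a same-strand read-through gene model that starts in the upstream gene RNF31. That model was not in the count table under its GENCODE name. RNF31 rose by 0.27 on the log2 scale (edgeR adjusted p = 0.0364), with overlapping groups. It lost its call when libraries were scaled by their totals alone (0.06, edgeR adjusted p = 0.656). The call of RNF31 was also lost with upper-quartile factors, with DESeq2 and without control replicate 1, control replicate 2 or shPHF19 replicate 2. The handling of reads in shared exons is not known from the labels, so the level of IRF9 is less certain than that of IRF7.

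IRF1, the interferon-gamma-induced activator, and IRF2, its competitor, fell by similar amounts. IRF1 gave 48.03, 57.8 and 52.5 CPM in control and 37.5, 36.6 and 31.3 CPM in shPHF19 replicates. IRF2 gave 46.7, 48.8 and 48.8 CPM in control and 30.9, 38.1 and 32.9 CPM in shPHF19 replicates. For both genes each shPHF19 library lay under each control library. The log2 fold change was -0.59 for IRF1 (95% interval -0.81 to -0.37, edgeR adjusted p = 8.92e-06) and -0.50 for IRF2 (95% interval -0.72 to -0.28, edgeR adjusted p = 0.000104). The ratio of IRF2 to IRF1 counts within a library, which does not depend on scaling, was 0.916 ± 0.0657 in the control group and 0.972 ± 0.128 in the shPHF19 group (SD, n = 3), and the groups overlapped. The difference between the changes of IRF1 and IRF2 was not tested. IRF1 (ENSG00000125347, chromosome 5, 132481609 to 132490798, minus strand) shares 1716 exonic bases with C5orf56 on the opposite strand. C5orf56 held 260 counts in all and was not called (log2 fold change -0.46, edgeR adjusted p = 0.206). IRF1 also shares 469 exonic bases with AC116366.3, a protein-coding gene model on the opposite strand that was not in the count table under that name. The part of reads from either gene in the IRF1 values was not tested. IRF2 (ENSG00000168310) extends over 86868 bases of chromosome 4 from 184387713 to 184474580.

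IRF5, which acts downstream of Toll-like receptors in myeloid cells, moved the other way and was the only member that rose. The control libraries gave 80.6, 88.2 and 84.6 CPM and the shPHF19 libraries 138, 122 and 118 CPM. The lowest shPHF19 library stood clear of the highest control library. The means were 84.4 ± 3.78 and 126 ± 10.3 CPM (SD, n = 3), a 1.49-fold rise (log2 fold change 0.58, 95% interval 0.40 to 0.76, edgeR adjusted p = 2.82e-07). IRF5 was already the member with the most counts in control cells, 4111 over the 3 libraries. With IRF7 lower and IRF5 higher, the ratio of IRF5 to IRF7 counts went from 4.75 ± 0.133 to 27.3 ± 4.01 (SD, n = 3). The groups did not overlap in this ratio, which follows from the changes of the single genes. IRF5 (ENSG00000128604) lies on chromosome 7 from 128937612 to 128950035 on the plus strand.

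IRF3, the constitutive sensor-activated member, did not pass the test. Control libraries gave 42.9, 45.0 and 46.1 CPM, and shPHF19 libraries 59.2, 45.2 and 40.8 CPM. The shPHF19 values straddled the control values, with replicate 1 the highest of all 6. The log2 fold change was 0.11 with a 95% interval of -0.11 to 0.34 (edgeR adjusted p = 0.395), and it was -0.05 without shPHF19 replicate 1 (edgeR adjusted p = 0.737). IRF3 (ENSG00000126456, chromosome 19, 49659569 to 49665875, minus strand) shares 734 exonic bases with BCL2L12 on the opposite strand, and BCL2L12 rose from 21.9 ± 2.14 to 40.3 ± 2.43 CPM (SD, n = 3, log2 fold change 0.88, edgeR adjusted p = 1.25e-08). The labels do not say if counting used strand, and the part of BCL2L12 reads in the IRF3 values was not tested. The ratio of IRF7 to IRF3 counts went from 0.398 ± 0.0217 to 0.0989 ± 0.0228 (SD, n = 3), with no overlap between groups.

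The lineage members were scarce. IRF8 was measured at 4.73, 4.89 and 5.51 CPM in control and at 5.12, 6.35 and 5.65 CPM in shPHF19 libraries, with overlapping groups. Its log2 fold change was 0.18 (edgeR adjusted p = 0.485), and its 95% interval of -0.26 to 0.62 still holds a rise of 1.53-fold. This rests on 245 counts in the control and 249 in the shPHF19 group. IRF8 (ENSG00000140968) lies on the plus strand of chromosome 16 from 85898803 to 85922609. IRF4 had 5 counts, all in control replicate 2, and 0 in the other 5 libraries, so it was near or under the counting limit in both groups and no fold is given. IRF4 (ENSG00000137265) is on the plus strand of chromosome 6 from 391739 to 411447.

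**Figure D2:**
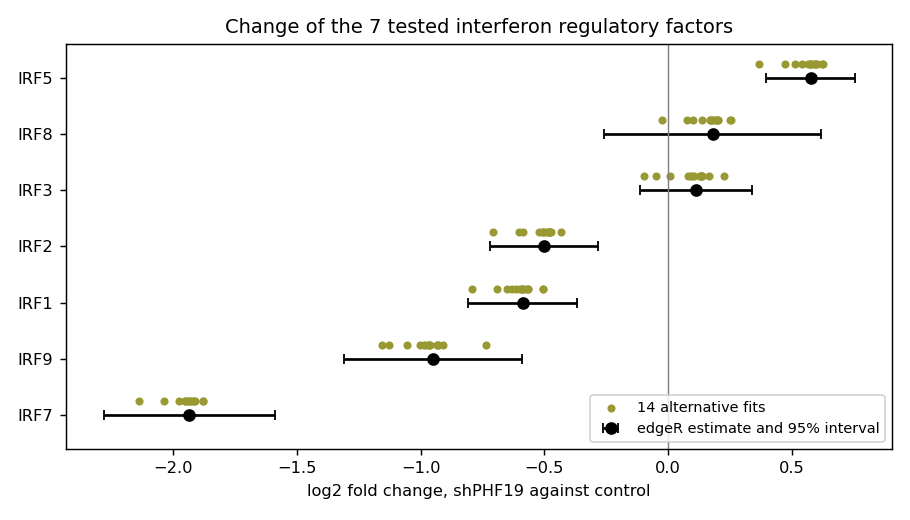
Log2 fold change (x axis, shPHF19 against control) of the 7 tested members, with the edgeR estimate and its 95% interval in black and 14 alternative fits as small points. IRF7 at -1.93, IRF9, IRF1 and IRF2 stay below 0 and IRF5 stays above 0 in every fit shown, while the points of IRF3 and IRF8 fall on both sides of 0.

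Levels of different members were compared per length, as TPM, length-corrected transcript shares of each library, over the union of annotated exons. In control cells the order was IRF5 (90.1 ± 3.49 TPM), IRF2 (72.1 ± 2.41), IRF3 (55.0 ± 2.73), IRF1 (31.6 ± 2.57), IRF7 (31.6 ± 0.871), IRF9 (17.3 ± 0.303), IRF8 (4.57 ± 0.460) and IRF4 (SD, n = 3). Libraries of neighbours in this order did not overlap, except for IRF1 and IRF7, whose levels were not separated. In shPHF19 cells IRF5 led at 112 ± 7.17 TPM, then IRF3 (49.6 ± 8.95) and IRF2 (42.6 ± 4.83), whose libraries overlapped, then IRF1 (17.6 ± 1.36). IRF9 (7.47 ± 1.99) and IRF7 (6.89 ± 0.539) overlapped with each other above IRF8 (4.32 ± 0.495) and IRF4 (0). This part of the order depends on the length used. IRF5 made up 29.8 ± 0.199% of the summed TPM of the family in control and 46.7 ± 1.57% in shPHF19 libraries, and IRF7 10.4 ± 0.319% and 2.88 ± 0.363% (SD, n = 3). GENCODE lists retained-intron transcripts for 6 of the 8 members, with the largest number for IRF9 (8), and none for IRF2 and IRF4. The exons of these transcripts count in the union. Over the longest protein-coding transcript, a choice made after seeing those lengths, IRF3 (71.7 ± 3.88 TPM) came before IRF2 (58.3 ± 2.20) in control cells and overlapped with IRF5 (78.9 ± 3.10, SD, n = 3), and IRF1 (41.1 ± 3.26) was separate from IRF7 (24.2 ± 0.574). Over that length IRF9 (9.17 ± 2.43 TPM) was separate from IRF7 (5.25 ± 0.417) in shPHF19 cells, and IRF7 overlapped with IRF8 (4.38 ± 0.504, SD, n = 3), as they also did over the longest transcript. The IRF5 share over the coding transcript was 26.3% in control and 41.1% in shPHF19 libraries. The summed CPM of the 8 members was 267 ± 12.2 in control and 261 ± 22.0 in shPHF19 libraries, overlapping. With the same counts scaled by library totals alone, a choice added after seeing the data, the sum was 286 ± 12.4 CPM in control and 243 ± 17.1 CPM in shPHF19 libraries (SD, n = 3) and the groups did not overlap, so whether the family total was lower depends on the scaling. The summed TPM, which has no TMM factor and also weights by length, was 302 ± 11.1 and 241 ± 14.8.

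**Figure D3:**
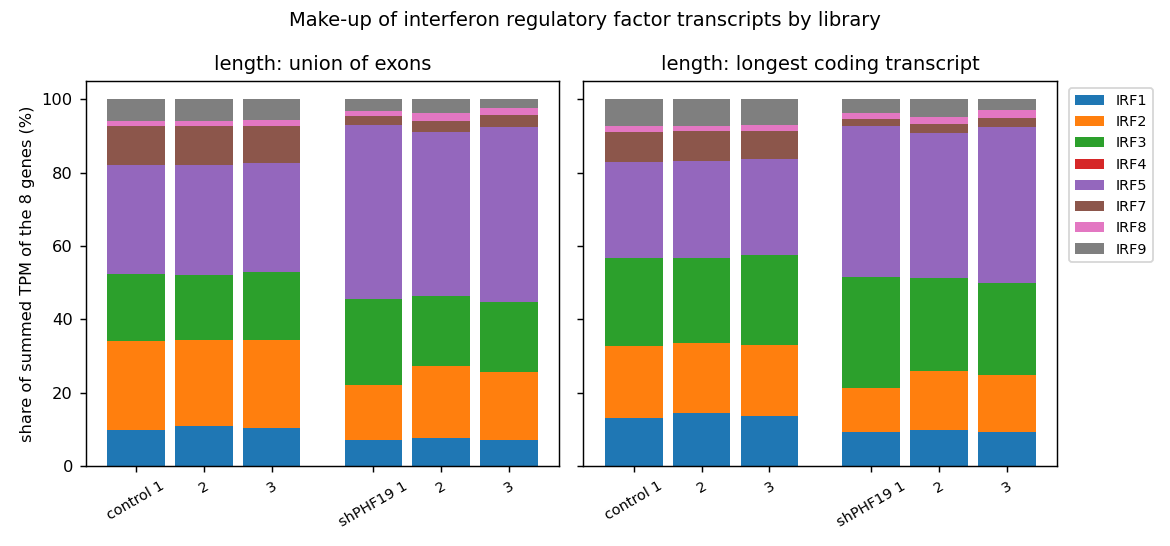
Share of the summed TPM of the 8 genes (y axis, percent) taken by each member in each library, with length as the union of exons at left and as the longest coding transcript at right. The IRF5 band is wider in all 3 shPHF19 libraries (mean 46.7% against 29.8% at left) and the IRF7 band is narrower.

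Genes that act with or upstream of the family moved in both directions. Of 18 listed regulators and partners, all tested, 8 rose and 7 fell (83.3% called), with a median log2 fold change of 0.18 against -0.03 for all genes, and with library totals only 4 rose and 8 fell. The members with the smallest adjusted p all fell. IRF2BPL and IRF2BP2, of the family of IRF2-binding corepressors, had log2 fold changes of -1.50 and -0.91, and IRF2BP2 went from 739 ± 13.2 to 393 ± 4.39 CPM (SD, n = 3). IRF2BP1, the other gene of that corepressor family in the list, was named after its values were seen and rose (0.46, edgeR adjusted p = 0.000177). The coactivator gene CREBBP (-0.94) and the class II transactivator gene CIITA (-1.82), an IRF1 target, fell too. SPI1, which encodes PU.1, the partner of IRF4 and IRF8, was named after its values were seen and rose by 0.21 on the log2 scale (edgeR adjusted p = 0.0287). Its call was lost with upper-quartile factors (0.10, edgeR adjusted p = 0.284) and with library totals only (0.0001, edgeR adjusted p = 0.999). Leaving out control replicate 1, shPHF19 replicate 1 or shPHF19 replicate 2 alone also lost the call. Of 26 sensors, adaptors and kinases upstream of IRF3, IRF5 and IRF7, 21 were tested, 12 fell and 5 rose (81.0% called, median -0.32). OPTN, an adaptor of the kinase TBK1, fell from 25.3 ± 3.26 to 2.27 ± 0.799 CPM (SD, n = 3, -3.47) and the DNA sensor gene IFI16 fell (-0.65). IRAK1 (0.96) and UNC93B1 (0.80), which serve the Toll-like receptor route to IRF5 and IRF7, rose. Others of this list, named after their values were seen, went both ways. IRAK4 (-0.60) and TRAF6 (-0.63), also on the Toll-like receptor route, fell, and SLC15A4 (0.81) rose.

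On the receptor side, 7 of 16 tested genes fell and 2 rose (56.2% called, median -0.19), close to the background share. That reading depends on the scaling, since with library totals only 12 fell and 2 rose, while 8214 of all 13014 genes were called. IFNGR1, a chain of the interferon-gamma receptor, fell from 94.1 ± 7.57 to 35.3 ± 2.61 CPM (SD, n = 3, log2 fold change -1.41), whereas IFNGR2, the other chain, named after its values were seen, rose from 55.8 ± 6.24 to 75.2 ± 5.69 CPM (SD, n = 3, 0.43, edgeR adjusted p = 0.000238). JAK1 (-0.62), STAT3 (-0.48) and the feedback inhibitor SOCS3 (-1.05) fell. STAT2, a partner of IRF9 named after its values were seen, did not pass the test (-0.12, edgeR adjusted p = 0.314) except with library totals only (-0.32, edgeR adjusted p = 0.00465). The type I receptor genes IFNAR1 (0.04) and IFNAR2 (-0.04), also named afterwards, did not pass the test (edgeR adjusted p = 0.772 and 0.776). The 21 listed interferon genes themselves held 9 counts in the 6 libraries together, 15 of them had none, and none was tested.

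Interferon-induced genes were split. Of 45 listed type I interferon-stimulated genes 40 were tested, of which 13 fell, 10 rose and 17 did not pass (57.5% called, median log2 fold change -0.08), and with library totals only 18 fell and 6 rose. IFITM3, a membrane protein that blocks virus entry, rose from 87.2 ± 5.74 to 206 ± 15.5 CPM (SD, n = 3, 1.24), and CMPK2 (1.58) and BST2, which encodes tetherin (0.94), rose. IFIT2, a known direct target of IRF3, fell from 22.1 ± 2.28 to 7.77 ± 0.817 CPM (SD, n = 3, -1.51). Of 38 listed interferon-gamma and IRF1 targets 29 were tested, of which 13 rose and 9 fell (75.9% called, median 0.07), and with library totals only 10 rose and 12 fell. TAP2, a subunit of the peptide transporter, rose from 47.4 ± 1.68 to 134 ± 7.10 CPM (SD, n = 3, 1.51), as did the immunoproteasome genes PSMB8 (0.98) and PSME1 (0.94). WARS, a tryptophanyl-tRNA synthetase gene induced by interferon-gamma and also by amino acid stress, fell from 353 ± 20.1 to 97.1 ± 2.03 CPM (SD, n = 3, -1.86). Both lists thus held called genes in each direction.

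**Figure D4:**
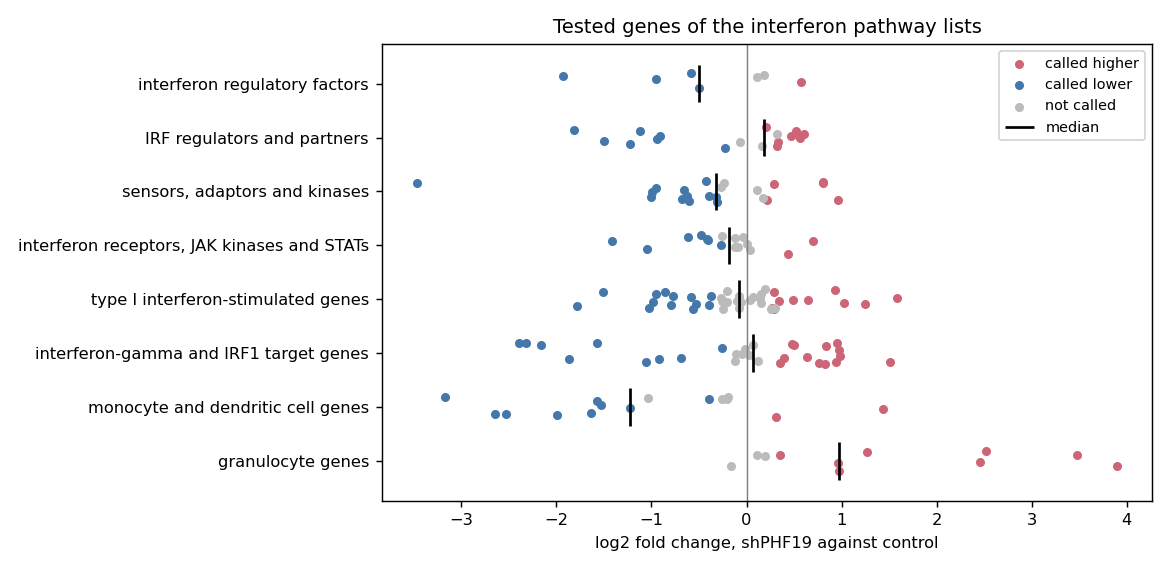
Log2 fold change (x axis, shPHF19 against control) of each tested gene in the family and in 7 lists (rows), coloured by call at an adjusted p of 0.05, with the median of each list as a black bar. The type I interferon-stimulated genes and the interferon-gamma targets spread to both sides of 0 (medians -0.08 and 0.07).

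IRF8 itself was not called, while most called genes of the monocyte list were lower and those of the granulocyte list were higher. Of 25 listed monocyte and dendritic cell genes 15 were tested, 9 fell and 2 rose (73.3% called, median log2 fold change -1.23), led by ITGAM (-3.17), ITGAX (-2.53), FCGR1A (-1.57) and the costimulatory gene CD86 (-2.64). ITGAM, which encodes CD11b, is also a marker of maturing granulocytes. Their summed level was 410 to 427 CPM in control and 229 to 248 CPM in shPHF19 libraries, and CD14, a defining monocyte marker, held 4 counts in control and 3 in shPHF19 libraries. Of 13 listed granulocyte genes 11 were tested, 8 rose and none fell (72.7% called, median 0.97), and with library totals only 7 rose and 1 fell, CEBPA. The list was led by the primary granule genes PRTN3 (3.48), ELANE (3.90), AZU1 (2.45) and BPI (2.52), while the secondary granule genes CAMP and LTF, named after their values were seen, held 12 and 30 counts in all and were not tested. The part of these lineage genes in the changes of IRF1, IRF5, IRF7 and IRF9 was not tested, and in bulk RNA a change in the share of cells and a change per cell cannot be told apart.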

How the data were processed

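RNA from Kasumi-1 cells was measured in 3 control and 3 shPHF19 RNA-seq libraries. The authors deposited whole-number counts per gene symbol, and HISAT2 2.1.0, HTSeq 0.11.2 and hg38 are named per the submitters' processing notes. The gene annotation and strand setting of the counting are not known from the labels. A second file deposited by the authors holds their own comparison (baseMean signal, log2 fold changes with errors, p-values), 5740 genes with adjusted p up to 0.00993. In the authors' deposited table the log2 fold changes of IRF1, IRF2, IRF5, IRF7 and IRF9 are -0.55, -0.46, 0.59, -1.88 and -0.87, and IRF3, IRF4 and IRF8 are not listed.

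Counts were tested over all genes with edgeR 4.0.16 in R 4.3.3 (filterByExpr, TMM, quasi-likelihood F test, robust, group as the only term), with Benjamini-Hochberg adjustment over 13014 genes and a threshold of 0.05. Intervals are the log2 fold change ± its standard error times the t quantile. Since separate cultures are not stated, p-values reflect only the spread of these 6 libraries, possibly technical. The fit was tested on simulated data. Levels per length used GENCODE 29 exons, matched by symbol for 23643 rows. Rows with date-like names number 28 (0.195% of counts), and were kept in the fit. Replicates of a group differed beyond counting error (chi-square per degree of freedom 4.63 to 11.7). Alternatives were other scalings, filters, DESeq2 1.42.0, limma-voom 3.58.1, a replicate block and leaving out each library.

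The members and gene lists were chosen with earlier results of these data known. The text names the 8 members, PHF19, and up to 4 tested genes of each list with the smallest adjusted p. Marker genes, genes that overlap a member and genes said to be so were named outside this rule. Some genes of the lists are not reported here by name.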

Additional observations from a re-analysis of the deposited data

How the results depend on the processing

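For the 7 tested members and PHF19, all 14 alternative fits kept the side of the threshold, and 5 members were called in each of them. With library totals only, the median of all genes moved from -0.03 to -0.24 on the log2 scale and calls split into 2590 higher and 5624 lower (3820 and 4015 with TMM), and with upper-quartile factors the split was 3190 and 4778 (median -0.14). Relative to that shift the directions of IRF1, IRF2, IRF5, IRF7 and IRF9 held, with log2 fold changes of -0.79, -0.71, 0.37, -2.14 and -1.16 with library totals only. The sign of 2 members that were not called changed, IRF3 with library totals only (-0.09) and without shPHF19 replicate 1 (-0.05), and IRF8 with library totals only (-0.02). Leaving out each library moved IRF9 between -1.13 and -0.74 and IRF7 between -1.98 and -1.88, and the count over all genes between 7099 and 7759. With library totals only, 14 of the receptor, JAK and STAT genes were called in place of 9. Of the erythroid, fibroblast and epithelial markers 2 were called in place of 1 with no filter beyond 1 count and with DESeq2. The causes were not tested. Same-numbered libraries did not deviate together (correlations -0.16, -0.01 and -0.05). With 3 libraries per group this cannot show whether they were prepared together, and the labels do not say. With the replicate block 7307 genes were called in place of 7835 and the same count of members (5), with IRF7 at -1.94, IRF9 at -0.98 and PHF19 at -2.32. Over 3 definitions of length the summed TPM ran from 297 to 302 (control) and from 236 to 241 (shPHF19). The summed CPM moved from 267 to 286 (control) and from 261 to 243 (shPHF19) with library totals only, an alternative chosen after seeing the data. Depth limits IRF8 and IRF4 most.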
